A study of Mus musculus with 27 samples.

Results

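The genes described here are Esm1, Cxcr4, Ackr3, Unc5b, Kcne3 and Fscn1, 6 genes known from endothelial tip cells, taken by symbol from a table of 40129 mouse genes. All 6 were among the 27137 genes that were tested. They were measured by RNA sequencing of whole retina in oxygen-induced retinopathy (OIR), in which mouse pups live in high oxygen, lose retinal capillaries, and return to room air, where the retina first becomes ischemic and then grows neovascular tufts. All mice were C57BL/6 (C57BL/6J in the study's methods) with the genotype WT. OIR mice were taken at p14 (postnatal day 14, OIR p14, n = 6) and at p17 (OIR p17, n = 8), and control pups kept in room air throughout at the same ages (nOIR p14, n = 6, and nOIR p17, n = 6). A library held 1 retina or both retinas of 1 perfused mouse, mice of a group came from few litters, fewest in nOIR p17, and only OIR pups within a set range of weight at p17 were kept. A seventh nOIR p14 mouse, S4, was left out, as in the study's methods.

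Tip cells lead a growing vessel sprout. They extend filopodia towards vascular endothelial growth factor, divide little, and are followed by proliferating stalk cells. Their typical genes encode secreted factors, guidance and chemokine receptors, and proteins that bundle actin in filopodia, and many of them are switched on by VEGF or by hypoxia. In the mouse retina, tip cells are numerous while the vascular plexus spreads after birth and appear again in the tufts of OIR. Since whole retina was sequenced, more cells of a type and more RNA per cell cannot be told apart in these values.

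Values are normalized reads, namely reads per gene divided by 1 size factor per mouse. Between 17029536 and 33593428 reads per mouse lay on genes. Fold changes are differences of group means on the scale of log2(normalized reads + 1). For low genes they depend on the 1 that is added and can differ from the fold of the mean reads in either direction. They are given with their standard error (SE) and a p-value of limma adjusted by the Benjamini-Hochberg method over all 27137 genes, and a gene passed at an adjusted p under 0.05. Whole retina carried the pan-endothelial markers in all 26 mice, with none of the 12 at 0 in a group. Sums of blood and lens markers varied widely between mice. For 5 blood genes, the sum was 1227 to 16980 normalized reads in OIR p17 mice against 97.8 to 1350 in the other mice, and for 5 lens genes it ran from 269 to 33244 in OIR p17 mice and from 8.88 to 19040 in the others.

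At p14, 3 of the 6 genes were higher in OIR mice, namely Esm1, Unc5b and Kcne3, and none was lower. Over all genes tested, 3.18% were higher and 2.91% lower at that age. At p17 all 6 were higher, where 7.39% of all genes tested were higher and 5.12% lower. The 6 genes and the lists below were chosen with earlier results of these data known. The shares over all genes are therefore a background and not a test of these genes. By the thresholds that the study used for differentially expressed genes (DEG), which add a log2 fold change above 2, Esm1 and Kcne3 were DEG at p14 (0.744% of all genes) and Esm1, Cxcr4 and Kcne3 at p17 (1.9%). Every OIR mouse was above every control of its age for 3 genes at p14 (1.91% of all genes) and for 4 at p17 (3.9%), which were those 3 and Cxcr4. For these an exact permutation test over mice must give its smallest possible p, 0.00216 at p14 and 0.000666 at p17 (two-sided). That p restates the lack of overlap and adds no evidence to it. For Fscn1 and Ackr3, which overlapped at p17, an exact permutation test over mice gave p = 0.0153 and p = 0.00599 (two-sided). The plot of each mouse shows a step at both ages for Esm1, Kcne3 and Unc5b, and at p17 for the others.

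**Figure D1:**
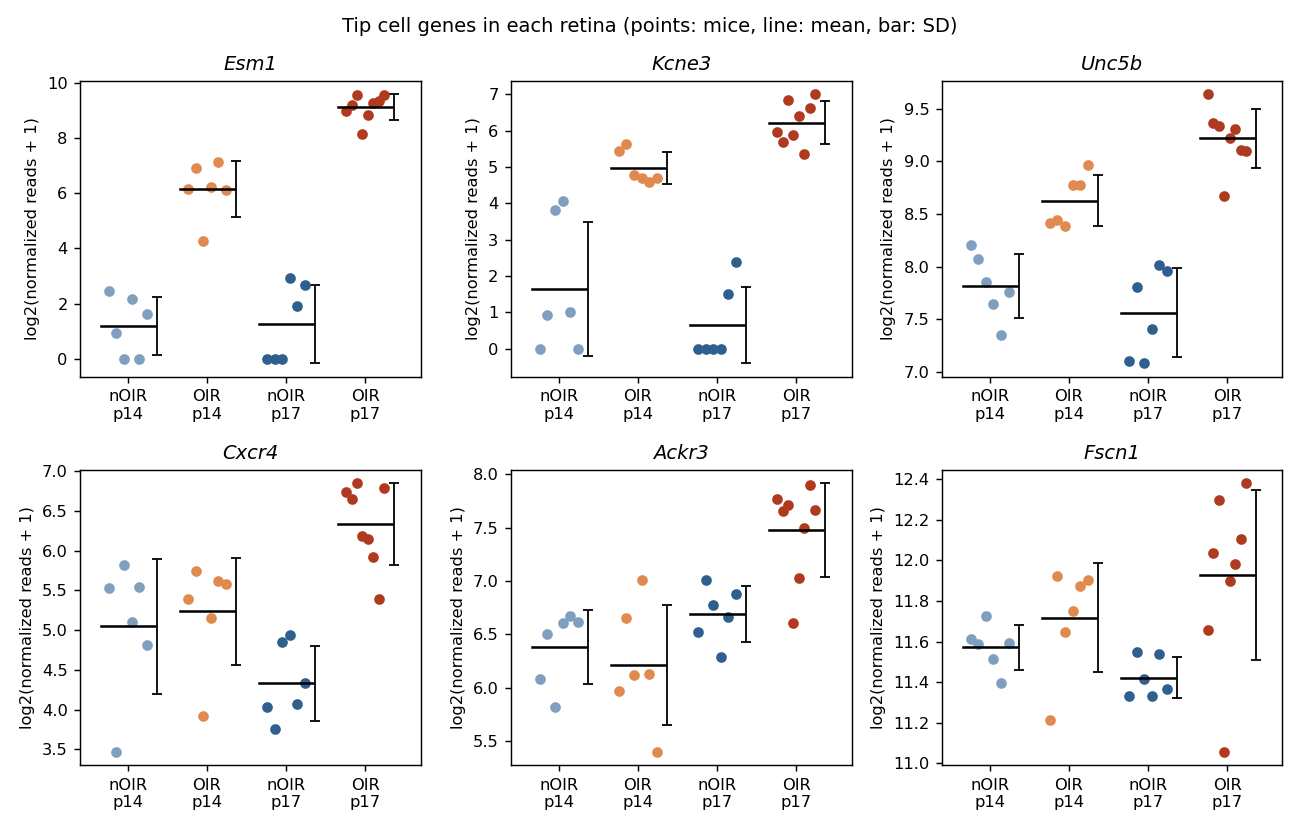
Each panel shows 1 gene, with log2(normalized reads + 1) of every mouse on the y axis and the 4 groups on the x axis. Points are mice, lines are group means and bars are the SD. All OIR p14 mice lie above all nOIR p14 mice for Esm1, Kcne3 and Unc5b, and all OIR p17 mice above all nOIR p17 mice for these genes and Cxcr4, while Ackr3 and Fscn1 overlap at both ages.

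Esm1 encodes endocan, a secreted proteoglycan that binds VEGF and the leukocyte integrin LFA-1 and is among the most specific genes of tip cells. Its start region is shown since no other gene tested had a larger log2 fold change at p17. The window holds 250 bases before and 50 after the start site in RefSeq (GRCm38.p6, plus strand, chr13:113209409-113209708), and capitals mark GCGTG, a form of the core to which hypoxia-inducible factors bind.
Esm1: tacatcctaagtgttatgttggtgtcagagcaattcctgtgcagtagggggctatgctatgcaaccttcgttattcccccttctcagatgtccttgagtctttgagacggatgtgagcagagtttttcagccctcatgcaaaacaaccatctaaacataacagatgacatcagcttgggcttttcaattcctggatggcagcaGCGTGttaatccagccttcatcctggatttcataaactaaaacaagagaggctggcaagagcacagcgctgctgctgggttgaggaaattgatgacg
These letters begin 47 bases before the start site. A search for GCGTG on both strands found it in 32.4% of 32851 such windows of the mouse genome, and in 6 of the 7 windows of the genes described here, at least 1 for each gene. The other form, ACGTG, was in 19.6% of all windows and in 1 of the 7. A match describes the letters and is not evidence of a bound site.

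In nOIR p14 mice, Esm1 ranged from 0 to 4.44 normalized reads with a median of 1.5, and it was 0 in 2 of 6 mice. In OIR p14 mice it ranged from 18.2 to 140.3 with a median of 72.5. The lowest OIR p14 mouse, S3, therefore still lay above the highest control, and S2 and S5 were highest. In nOIR p17 mice the range was 0 to 6.62 with a median of 1.39 and 3 of 6 mice at 0, and in OIR p17 mice it was 278 to 753 with a median of 597. No OIR p17 mouse overlapped with any mouse of another group, the lowest being S4. The means were 1.83 ± 1.86 (SD, n = 6), 81.7 ± 42.8 (SD, n = 6), 2.45 ± 2.96 (SD, n = 6) and 571 ± 158 (SD, n = 8), in the same order. Relative to controls of the same age these means were 44.7-fold and 233-fold higher. The controls rest on few reads, 12 over 6 mice at p14 (95% Poisson interval 6.20 to 21.0) and 14 over 6 mice at p17 (7.65 to 23.5), so the size of both folds is imprecise. Intervals of this kind cover counting error alone.

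By limma, Esm1 rose by 4.94 (SE 0.54, adjusted p = 3.76e-07) at p14 and by 7.85 (SE 0.51, adjusted p = 2.41e-12) at p17. With a pseudocount of 0.1 these values were 6.35 and 9.64, and both calls held in every setting. At p14, 8 genes had a larger log2 fold change. The difference between both effects was 2.91 (SE 0.74, adjusted p = 0.0370), and Esm1 was the single gene of the 6 to pass this test, which 1.43% of all genes passed as higher. That call is weak. With 1 mouse left out at a time it held in 12 of 26 fits, with adjusted p from 0.0134 to 0.0771, and edgeR (adjusted p = 0.355) and DESeq2 (adjusted p = 0.0814) on recovered reads did not make it. Among OIR mice alone, Esm1 was 2.96 higher at p17 than at p14 (SE 0.51, adjusted p = 0.000273), again with no overlap, where 1.41% of all genes rose without overlap. With a pseudocount of 0.1 this call was lost (2.99, adjusted p = 0.0695). Between the control ages the difference was 0.05 (95% interval -1.05 to 1.16), within the spread of the mice. The order of the groups was thus OIR p17, OIR p14 and then both controls, which did not differ beyond their spread.

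Cxcr4 encodes the signalling receptor of the chemokine CXCL12 and is found on tip cells, leukocytes, microglia and neurons. It did not pass at p14. The nOIR p14 mice ranged from 10.1 to 55.6 normalized reads with a median of 39.3, and the OIR p14 mice from 14.1 to 52.6 with a median of 44.0. Both groups covered the same range, and each held 1 low mouse, nOIR p14 S2 and OIR p14 S3. At p17 the nOIR mice ranged from 12.5 to 29.8 with a median of 17.5, and the OIR mice from 41.2 to 114.4 with a median of 85.7. All 8 OIR p17 mice were above all 6 controls, with S7 lowest and S3 highest. Means were 36.2 ± 16.3, 39.6 ± 13.9 and 20.1 ± 7.13 (SD, n = 6 each) in nOIR p14, OIR p14 and nOIR p17 mice and 83.9 ± 26.9 (SD, n = 8) in OIR p17 mice.

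The log2 fold change of Cxcr4 was 0.19 at p14 (95% interval -0.55 to 0.92, adjusted p = 0.882) and 2.01 at p17 (SE 0.34, adjusted p = 6.37e-05). It thus lay just above the limit of 2 for a DEG, and with 1 mouse left out it ran from 1.89 to 2.14, falling below 2 without nOIR p17 S1, S2 or S5 or without OIR p17 S1, S2, S3 or S8. Over 11 other settings the log2 fold change at p17 ran from 1.81 to 2.07. The difference between the ages was 1.82 (SE 0.49) and missed the threshold (adjusted p = 0.0557). It passed in 3 of 26 fits with 1 mouse left out, those without nOIR p14 S2 (2.13, adjusted p = 0.00666), nOIR p17 S4 or OIR p17 S7, and in 5 of 10 other settings, namely edgeR (adjusted p = 0.0274), DESeq2 (adjusted p = 0.00237), nOIR p14 S4 included (adjusted p = 0.0493), the same total in every mouse (adjusted p = 0.0443) and genes averaging 10 normalized reads or more (adjusted p = 0.0407). Cxcr4 was also 1.10 higher in OIR p17 than in OIR p14 mice (SE 0.34, adjusted p = 0.0491), a call that held in 4 of 26 such fits, those without nOIR p14 S2 or S3, OIR p14 S2 or OIR p17 S7. It held in 5 of 11 other settings (adjusted p up to 0.102), so this call is weak. Of the 4 groups, nOIR p17 was lowest and OIR p17 highest, and neighbouring groups below OIR p17 did not differ in the fit.

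Ackr3, formerly Cxcr7, encodes an atypical receptor that binds and clears CXCL12 and adrenomedullin without signalling through G proteins. It was the gene with the lowest log2 fold change of the 6 at p14. In nOIR p14 mice it ranged from 55.6 to 100.7 normalized reads (median 93.0) and in OIR p14 mice from 41.2 to 127.7 (median 68.8). OIR p14 S4 and S6 marked both ends of the whole range at that age. In nOIR p17 mice the range was 77.2 to 128.1 (median 104.4), and in OIR p17 mice 96.3 to 237 (median 201). Of the 8 OIR p17 mice, 7 exceeded every control, and S4 lay within the controls. Group means were 84.4 ± 18.7, 78.0 ± 30.8 and 104 ± 18.3 (SD, n = 6 each) and 184 ± 47.5 (SD, n = 8).

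The log2 fold change of Ackr3 was -0.17 at p14 (95% interval -0.66 to 0.32, adjusted p = 0.819) and 0.79 at p17 (SE 0.22, adjusted p = 0.0169). The call at p17 was lost without nOIR p17 S4 (0.71, adjusted p = 0.0538) and after quantile normalization (0.61, adjusted p = 0.0799). It was also lost with the mouse number as a replicate block. The difference between the ages, 0.96 (SE 0.33), did not pass (adjusted p = 0.190). From OIR p14 to OIR p17, Ackr3 rose by 1.26 (SE 0.22, adjusted p = 0.000439), and this held in all 26 fits with 1 mouse left out. An exact permutation test of the mice gave p = 0.00266 for the same contrast (two-sided, smallest possible p = 0.000666). OIR p17 was thus highest, and the other 3 groups did not differ from each other in the fit.

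Unc5b encodes a receptor for netrins that also binds ROBO4 and is found on arterial and tip cells, where it turns filopodia back. It is shown here since it was the receptor that passed at both ages. Its window in RefSeq (GRCm38.p6, minus strand, chr10:60831532-60831831) has GCGTG, in capitals, 57 bases before the start site.
Unc5b: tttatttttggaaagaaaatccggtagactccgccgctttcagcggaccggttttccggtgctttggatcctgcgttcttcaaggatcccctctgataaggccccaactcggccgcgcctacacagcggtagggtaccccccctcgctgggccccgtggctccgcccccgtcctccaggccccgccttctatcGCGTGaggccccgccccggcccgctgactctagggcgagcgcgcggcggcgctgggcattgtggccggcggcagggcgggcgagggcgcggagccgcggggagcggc
The same window holds CCGGAA, the core of ETS factors, on the other strand, which 14.9% of all windows have on either strand and no other window of the 6 genes has.

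Unc5b ranged from 162 to 294 normalized reads in nOIR p14 mice (median 223) and from 333 to 499.95 in OIR p14 mice (median 391). The OIR p14 mice fell into 2 sets, with S1, S2 and S3 near the lower end and S4, S5 and S6 higher. In nOIR p17 mice it ranged from 134 to 258 (median 195), and in OIR p17 mice from 407 to 793 (median 614). All OIR mice of both ages were above all control mice of both ages. The means of 228 ± 47.6 and 399 ± 68.5 at p14 (SD, n = 6 each) and of 194 ± 55.3 (SD, n = 6) and 603 ± 111 (SD, n = 8) at p17 correspond to 1.75-fold and 3.10-fold higher levels.

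On the log2 scale Unc5b rose by 0.81 at p14 (SE 0.18, adjusted p = 0.00381) and by 1.66 at p17 (SE 0.17, adjusted p = 1.18e-08). Both calls held in all 26 fits with 1 mouse left out. The difference of 0.84 (SE 0.24) did not pass (adjusted p = 0.0824) but did by DESeq2 (adjusted p = 0.0290), with nOIR p14 S4 included (0.91, adjusted p = 0.0475), and without nOIR p14 S6, nOIR p17 S5 or OIR p17 S4 (adjusted p from 0.0371). Between OIR ages it was 0.59 higher at p17 (SE 0.17, adjusted p = 0.0285). This call was lost without any of OIR p14 S1, S2 and S3 or OIR p17 S1, S2 and S6 (adjusted p up to 0.0728), and 1 OIR p17 mouse, S4, lay among the OIR p14 mice. Unc5b was highest in OIR p17, then in OIR p14 mice, and the controls did not differ (-0.25, 95% interval -0.62 to 0.11).

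Kcne3 encodes a single-pass subunit that alters the gating of voltage-gated potassium channels such as KCNQ1, and it marks tip cells in the mouse. RefSeq gives it a pair of start sites, and both windows are shown (GRCm38.p6, plus strand, chr7:100176420-100176719 and chr7:100178433-100178732) because ACGTG, in capitals in the first, was in no other window of the 6 genes. Capitals in the second mark GCGTG, which begins 8 bases after the start site.
Kcne3 first start: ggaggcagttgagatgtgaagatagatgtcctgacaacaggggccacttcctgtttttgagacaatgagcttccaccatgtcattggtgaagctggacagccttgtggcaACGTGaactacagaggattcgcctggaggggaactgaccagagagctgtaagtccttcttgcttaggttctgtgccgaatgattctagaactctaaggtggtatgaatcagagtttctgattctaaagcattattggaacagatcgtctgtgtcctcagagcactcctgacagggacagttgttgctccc
Kcne3 second start: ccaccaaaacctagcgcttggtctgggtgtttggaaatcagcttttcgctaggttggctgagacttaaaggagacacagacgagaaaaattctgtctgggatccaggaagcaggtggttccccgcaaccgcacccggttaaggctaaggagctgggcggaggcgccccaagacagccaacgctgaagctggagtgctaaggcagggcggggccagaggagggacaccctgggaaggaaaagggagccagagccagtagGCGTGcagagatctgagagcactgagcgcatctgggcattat
In the first window ACGTG begins 140 bases before the start site. The counts do not separate reads of the start sites.

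In controls Kcne3 was near the limit of detection. It ranged from 0 to 15.8 normalized reads in nOIR p14 mice (median 0.966, 0 in 2 of 6) and from 0 to 4.25 in nOIR p17 mice (median 0, 0 in 4 of 6). The nOIR p14 values came almost entirely from S3 and S5. In OIR p14 mice it ranged from 23.0 to 48.3 (median 25.5), and in OIR p17 mice from 39.6 to 126 (median 72.1). OIR and nOIR mice of both ages were separate. OIR p14 S1 and S2 reached into the range of the OIR p17 mice, and the other OIR p14 mice lay below it. Group means were 5.14 ± 7.28 and 31.5 ± 10.8 at p14 (SD, n = 6 each) and 1.02 ± 1.75 (SD, n = 6) and 78.7 ± 31.7 (SD, n = 8) at p17. The nOIR p17 mean rests on 6 reads in all (95% Poisson interval 2.20 to 13.1).

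Kcne3 rose by 3.32 at p14 (SE 0.59, adjusted p = 0.000451) and by 5.56 at p17 (SE 0.56, adjusted p = 1.12e-08). The size of both is uncertain, since the fold of the mean reads was 6.13 at p14 and 77.4 at p17, and the log2 fold change ran from 2.57 (edgeR) to 4.71 (pseudocount of 0.1) at p14 and from 5.42 to 7.89 at p17 over the other settings, all of which passed. In both comparisons it came next after Esm1 among the 6 genes. Over all genes tested, 37 had a larger log2 fold change at p14 and 8 at p17, against 8 and 0 for Esm1. The difference between the ages was 2.24 (SE 0.81, adjusted p = 0.236), and DESeq2 alone passed it (3.68, adjusted p = 0.00789). From OIR p14 to OIR p17 the difference of 1.25 (SE 0.56) missed the threshold (adjusted p = 0.218; exact permutation test of the single gene, two-sided p = 0.00266), but passed with only these groups in the fit (adjusted p = 0.0204). All 8 OIR p17 mice were above 4 of the 6 OIR p14 mice. The order was OIR p17, OIR p14, nOIR p14 and nOIR p17, and only OIR p14 and nOIR p14 differed among neighbours.

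Fscn1 encodes fascin, which bundles actin in filopodia of tip cells and is also abundant in developing neurons. Its nOIR p14 mice ranged from 2694 to 3387 normalized reads (median 3084) and its OIR p14 mice from 2378 to 3876 (median 3597). At p14, 4 of 6 OIR mice were above all controls, while S1 was below all of them. At p17 the nOIR mice ranged from 2573 to 2997 (median 2685) and the OIR mice from 2129 to 5326 (median 4124). The OIR p17 mouse S4 was below every control, and the other 7 were above. Means were 3050.4 ± 229.8 and 3413 ± 568 at p14 (SD, n = 6 each) and 2749 ± 194 (SD, n = 6) and 4023 ± 1011 (SD, n = 8) at p17.

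Fscn1 changed least at p17, by 0.50 (SE 0.14, adjusted p = 0.0129), which is 1.46-fold in the means. At p14 the log2 fold change was 0.15 (95% interval -0.16 to 0.45, adjusted p = 0.715). Neither the difference of 0.36 between the ages (adjusted p = 0.567) nor that of 0.21 between OIR ages (adjusted p = 0.462) passed. Without S4 the log2 fold change at p17 was 0.63 (adjusted p = 9.94e-05). No neighbouring groups in the order OIR p17, OIR p14, nOIR p14 and nOIR p17 differed in the fit.

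**Figure D2:**
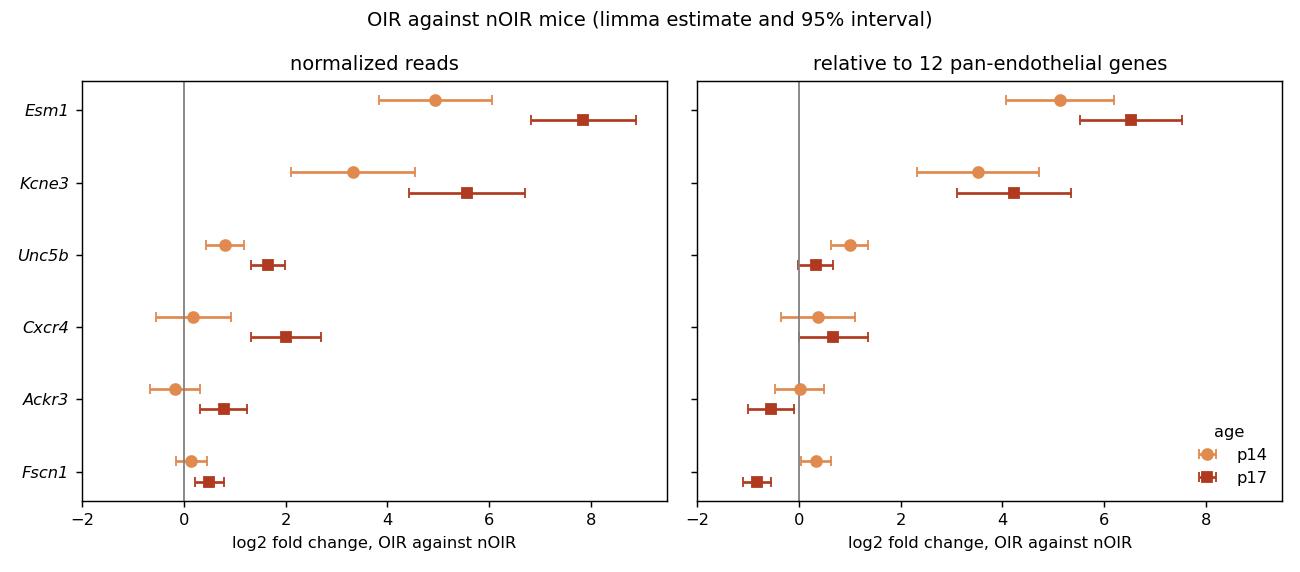
The log2 fold change of OIR against nOIR mice (x axis) is plotted for the 6 genes, with 95% intervals of limma, at p14 (circles) and p17 (squares). On the left are normalized reads, on the right values relative to the mean log2 value of 12 pan-endothelial genes in the same mouse. Esm1 and Kcne3 are above 0 at both ages on both scales, and Fscn1 and Ackr3 move from above 0 to below 0 at p17.

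Control mice were also compared between the ages. Between nOIR p14 and nOIR p17, limma passed 0 of the 6 genes (0.158% of all genes were higher and 0.158% lower), 0 had an unadjusted p under 0.05, and edgeR and DESeq2 each passed 0. The log2 difference was -0.72 for Cxcr4 (95% interval -1.46 to 0.02, adjusted p = 0.698) and -0.99 for Kcne3 (95% interval -2.21 to 0.23, adjusted p = 0.809), so that lower levels at p17 are within both intervals. In an exact permutation test of single genes, Fscn1 alone was under 0.05 (two-sided p = 0.0325). Between the OIR ages 4 of 6 genes passed as higher at p17 (Esm1, Cxcr4, Unc5b and Ackr3), against 4.11% of all genes.

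The 6 genes also differed in how far single OIR mice departed from their group. OIR p17 S4 was the lowest of 8 mice for Esm1, Unc5b, Fscn1 and Ackr3, and OIR p17 S3 was among the highest 3 for all 6 genes. In OIR p14 mice, S3 was lowest for Esm1, Cxcr4 and Unc5b, and S2 was highest for Cxcr4, Kcne3 and Fscn1. OIR p17 S4 also had the lowest summed level of pan-endothelial (12956 normalized reads, the other 7 from 15760.4 to 17603) and proliferation genes (802, the others from 954 to 1367). OIR p17 S3 had the highest sum of both lists. Among OIR p14 mice, S2 had the lowest pan-endothelial sum (8576) and S4 the highest (14013), while S3 had the lowest proliferation sum (491). The mice that were high or low for the 6 genes were thus not always high or low for these sums. The part of these levels in the values of single mice was not tested.

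**Figure D3:**
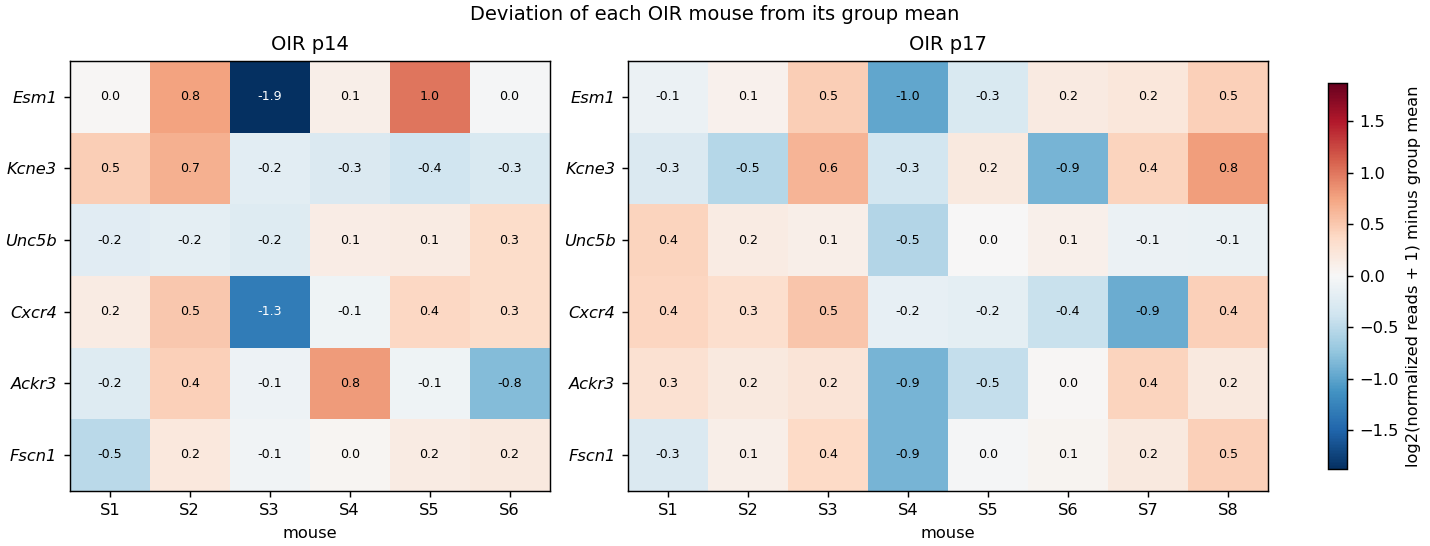
Cells give log2(normalized reads + 1) of each OIR mouse (columns) minus the mean of its group, for the 6 genes (rows), with OIR p14 on the left and OIR p17 on the right. S4 is low across Esm1, Unc5b, Ackr3 and Fscn1 in OIR p17 mice, and S3 is low for Esm1 and Cxcr4 in OIR p14 mice.

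Since the vessels themselves change in OIR, the markers of endothelial cells were set beside these genes. At p14, 1 of 12 pan-endothelial genes was higher and 1 lower (median log2 fold change -0.18, all genes 0.02). Their summed level was 10564 to 13758 normalized reads in nOIR p14 mice and 8576 to 14013 in OIR p14 mice. At p17, 10 of 12 were higher (median 1.46, all genes -0.02), and the sum was 8650.2 to 10390.0 in nOIR p17 and 12956 to 17603 in OIR p17 mice. Of 6 pericyte genes 3 were lower at p14 and 6 higher at p17, of 8 microglia genes 1 and then 5 were higher, and all 7 proliferation genes were higher at both ages. Of 7 ganglion cell genes 3 were lower at p14 and 4 at p17, and of 6 amacrine cell genes 3 and then 4, with 0 higher. Of 6 Müller glia genes 4 were lower at both ages, and 1 was higher at p17.

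Each gene was therefore also taken relative to the mean log2 value of the 12 pan-endothelial genes in the same mouse. On this scale the median of all genes moved to 0.21 at p14 and to -1.35 at p17. At p14 the same 3 genes were higher as before (4.68% of all genes), Esm1 by 5.13 (SE 0.52), Kcne3 by 3.51 (SE 0.59) and Unc5b by 1.00 (SE 0.18). Fscn1, at 0.34 (adjusted p = 0.198), passed only without OIR p14 S4 (0.44, adjusted p = 0.0331). At p17 only Esm1 and Kcne3 were still higher (1.6% of all genes), by 6.52 (SE 0.49, adjusted p = 8.50e-13) and 4.24 (SE 0.55, adjusted p = 2.66e-08).

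Cxcr4 and Unc5b did not pass relative to the pan-endothelial genes at p17, at 0.68 (SE 0.33, adjusted p = 0.0620) and 0.33 (SE 0.17, adjusted p = 0.0691). Each passed in 1 of 10 other limma settings (adjusted p = 0.0360 and 0.0303), over which Unc5b ran from 0.17 to 0.39. Fscn1 and Ackr3 were lower on this scale, by 0.82 and 0.54 (log2 fold changes -0.82, SE 0.14, adjusted p = 2.38e-06, and -0.54, SE 0.22, adjusted p = 0.0266). The same direction held for 78.3% of all genes, and both values are above the median of all genes. With 1 mouse left out, Ackr3 did not pass without nOIR p17 S2 or S6 or OIR p17 S4 or S5 (adjusted p up to 0.0669), Cxcr4 passed without nOIR p14 S2, nOIR p17 S3 or S4 or OIR p17 S7 (adjusted p from 0.0305), and Unc5b without nOIR p17 S2, S5 or S6 (adjusted p from 0.0317). Unc5b, relative to endothelium, was 0.21 ± 0.25 in OIR p14 mice and -0.44 ± 0.18 in OIR p17 mice (SD, n = 6 and 8), against -0.80 ± 0.34 and -0.77 ± 0.39 in the controls.

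Of 20 other genes known from tip cells (Adm is also counted among the ligands), 9 were higher in OIR mice at p14 and 17 at p17, with none lower, and their median log2 fold change was 0.50 and then 1.91. The 6 genes had medians of 0.50 and 1.83. Relative to the pan-endothelial genes, 12 of the 20 were higher and 0 lower at p14 and 10 higher and 4 lower at p17, with medians of 0.69 and 0.58. Of all genes on that scale, 4.68% were higher at p14, and 1.6% were higher and 78.3% lower at p17. Their medians were 0.21 and -1.35. In normalized reads, for 13 of the 20, the effect at p17 was larger by the test of the difference. Mcam, an adhesion molecule, rose by 1.30 (adjusted p = 3.81e-08) and 2.7 (adjusted p = 5.08e-16), Apln, the secreted peptide apelin, by 1.57 and 4.43 (adjusted p = 2.05e-15), and Adm, which encodes adrenomedullin, by 3.03 and 5.52 (adjusted p = 6.72e-16). Angpt2, a secreted antagonist of the receptor TIE2, rose by 0.88 (adjusted p = 0.000720) and 2.88. The 3 genes that passed at neither age were Ramp3, Prcp and Ptn, named after their values were seen.

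**Figure D4:**
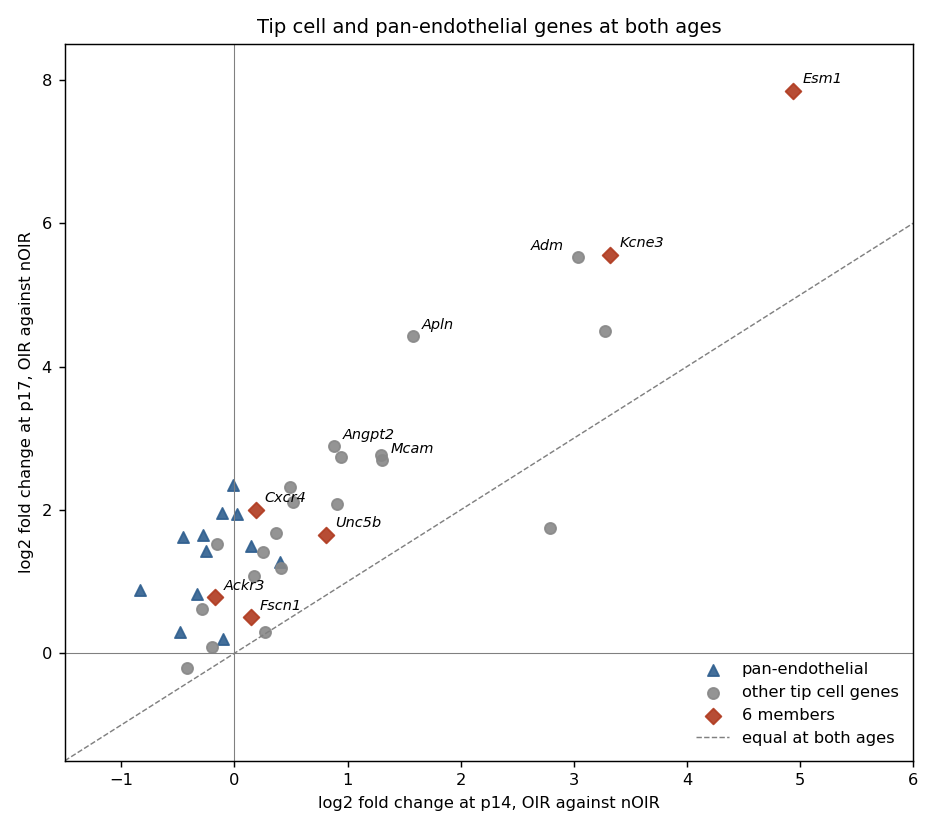
Log2 fold changes of OIR against nOIR mice at p14 (x axis) and p17 (y axis) are shown for the 6 genes (diamonds), 20 other tip cell genes (circles) and 12 pan-endothelial genes (triangles), with a dashed line where both are equal. Most points lie above the line, and the pan-endothelial genes have a median of -0.18 at p14 and of 1.46 at p17.

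The ligands of these receptors did not follow a single course. Cxcl12, the ligand of CXCR4 and ACKR3, was 415 ± 51.3 and 367 ± 81.3 normalized reads at p14 (SD, n = 6 each), and 702 ± 93.2 (SD, n = 6) and 786 ± 304 (SD, n = 8) at p17, with log2 fold changes of -0.20 (adjusted p = 0.698) and 0.09 (adjusted p = 0.842). Adm, which encodes another ligand of ACKR3, went from 68.0 ± 22.8 in nOIR p14 to 575 ± 227 in OIR p14 mice (SD, n = 6 each), and from 29.2 ± 9.63 in nOIR p17 (SD, n = 6) to 1367 ± 359 in OIR p17 mice (SD, n = 8). In both age comparisons of Adm the OIR mice were higher (log2 fold changes 3.03 and 5.52).

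For UNC5B, the ligands Ntn1 (9.72 to 19.0 normalized reads as group means) and Ntn4 (425 to 517) did not pass at either age. The log2 fold change of Ntn1 was -1.25 at p14 (19.0 in nOIR and 9.72 in OIR mice, adjusted p = 0.177) and -0.15 at p17 (adjusted p = 0.907), and that of Ntn4 was -0.03 at p14 and -0.41 at p17 (adjusted p = 0.299). Robo4, its partner on endothelium and also 1 of the 12 pan-endothelial genes, was -0.28 at p14 (adjusted p = 0.588) and rose by 1.65 at p17 (adjusted p = 5.85e-07). Vegfa, which endocan binds, rose by 0.66 at p14 (adjusted p = 0.00168) and 1.49 at p17 (adjusted p = 4.45e-10). Kcnq1, a channel that KCNE3 modulates, was 0.37 at p14 (adjusted p = 0.718) and rose by 2.28 at p17 (adjusted p = 1.92e-05). Of all 19 ligands and partners, 3 were higher and 1 lower at p14, and 5 higher and 2 lower at p17, with medians of -0.03 and -0.07.

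Of 16 relatives of the 6 genes 13 were tested, since Fscn3, Cxcr3 and Cxcr5 had under 1 normalized read on average, and 1 was higher at p14, while 3 were higher, 3 lower and 7 did not pass at p17. Kcne4 and Kcne1, which encode other subunits of the KCNE family, rose at p17 by 3.10 (adjusted p = 0.000369) and 2.44 (adjusted p = 0.00335). Both were low. Kcne1 averaged 13.2 normalized reads in nOIR p14, 25.0 in OIR p14, 3.61 in nOIR p17 and 19.4 in OIR p17 mice. Kcne4 averaged 24.3, 12.6, 14.1 and 71.7 in the same order, and nOIR p17 mice ran from 1.10 to 54.7. Ackr2, a scavenger of CC chemokines, rose at p17 by 2.08 (adjusted p = 0.00219). Unc5d fell by 0.56 (adjusted p = 0.00414) and Fscn2, the photoreceptor paralog of fascin, fell by 0.44 (adjusted p = 0.0134) at p17, so Fscn1 and Fscn2 moved in opposite directions at that age.

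Among 15 other genes of filopodia and actin, 4 were higher at p14, and 8 were higher and 1 lower at p17, with medians of 0.06 and 0.39. Arpc1b, a subunit of the ARP2/3 complex, rose by 0.98 (adjusted p = 6.26e-05) and 2.35 (adjusted p = 5.72e-13). Msn and Ezr, which link actin to the membrane, rose by 1.37 and 0.74 at p14 and by 2.14 and 1.22 at p17. Vasp, which extends actin filaments at filopodial tips, was 0.18 at p14 (adjusted p = 0.642) and rose by 1.17 at p17 (adjusted p = 7.56e-07). These proteins act in many cell types of the retina.

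As a description, Pearson's r of log2 values was taken over the 26 mice between each gene and the 19004 genes that averaged 10 normalized reads or more. The mice share their 4 groups, so r holds differences between groups as well as between mice of a group. Esm1 was most like Acta2 (r = 0.96), a smooth muscle and pericyte actin, and then Mcam, Prkab2, Capg and Cd93. Unc5b was most like Mcam (r = 0.94), Ehd2, Nid2, Col4a1 and Mlkl, and Kcne3 most like Tubb6 (r = 0.93), Ube2c, Efemp2, Ndufa4l2 and Ppic.

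For Cxcr4 the closest genes were Chst7 (r = 0.86), Mxd3, Cd34, Meox1 and Vwa1. Fscn1 was closest to 2310022B05Rik (r = 0.86), Ppme1, Eif3b, Vasp and Cdc42ep1, and Ackr3 to Tmem204 (r = 0.86), Aqp1, Trib3, Trip10 and Dusp1. After the mean of each group was subtracted, r was 0.69 to 0.84 for the 5 genes closest to Fscn1, 0.57 to 0.62 for those of Ackr3 and 0.24 to 0.53 for those of Esm1. It was 0.46 to 0.68 for those of Cxcr4, 0.49 to 0.57 for those of Unc5b and 0.26 to 0.59 for those of Kcne3. Among the 100 genes most like each gene, the other tip cell genes numbered 10 for Unc5b, 7 for Esm1, 7 for Cxcr4, 5 for Kcne3, 1 for Fscn1 and 0 for Ackr3. Ackr3 instead had 6 of the 12 pan-endothelial and 3 of the 6 pericyte genes there. Proliferation genes among the 100 numbered 4 for Kcne3, 3 for Unc5b, 1 for Esm1 and 0 for Cxcr4, Fscn1 and Ackr3.

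Within the 6 genes, Esm1 and Unc5b were most alike (r = 0.93), followed by Esm1 and Kcne3 (r = 0.89) and Unc5b and Kcne3 (r = 0.85). The values for Ackr3 with the other 5 were 0.39 to 0.52. With group means subtracted, r was 0.45 for Esm1 and Unc5b, 0.15 for Esm1 and Kcne3 and 0.05 for Unc5b and Kcne3. It was 0.39 for Unc5b and Fscn1 (0.67 before) and 0.38 for Fscn1 and Ackr3 (0.49 before).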

How the data were processed

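RNA of whole retina (SMARTer v4 and Nextera XT, not stranded) was sequenced from 27 mice. Per the submitters' processing notes, the authors used STAR 2.7.8a, featureCounts 2.0.1 and DESeq2 1.34. The deposited signal is reads per gene divided by a size factor per mouse, not per gene length. The group means and the deposited log2 fold changes and p-values of the authors were not used. Whole reads were recovered for 100.0% of values (tolerance 1e-06).

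Genes that averaged 1 normalized read or more were tested with limma 3.58.1 in R 4.3.3 (lmFit, eBayes with trend) on log2(normalized reads + 1), over 26 mice in 4 groups, with Benjamini-Hochberg adjustment over 27137 genes. Single genes were also compared by exact permutation tests over mice (scipy 1.17.1, two-sided). Alternatives were edgeR 4.0.16 and DESeq2 1.42.0 on recovered reads, other pseudocounts, filters and scalings, a lens covariate (Cryaa), the compared groups alone, 4 pan-endothelial genes in place of 12, nOIR p14 S4 included, a replicate block and each mouse left out. The fits were tested on simulated data.

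The 6 genes and all lists were chosen with earlier results of these data known. Beside the 6, the text names up to 4 genes of each list with the smallest adjusted p at p17, the ligands Cxcl12, Adm, Ntn1 and Ntn4, the paralog Fscn2, and the 5 genes most like each gene. The litter of each mouse is not given in the sources used here, so mice were taken as independent and p-values measure the spread between these mice. No pair of mice of a group had counts within sampling noise. Copies made by PCR cannot be told from separate molecules. Without strand, reads of Esm1 and of Gzmk on the opposite strand, and of Kcne3 and its antisense Gm34821 (group means 0 to 1.73 normalized reads), cannot be told apart. Gzmk had no entry under that symbol in the table of genes, so no level of it is given. Start regions came from RefSeq (GRCm38.p6), with 7 windows matched for the 6 genes.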

Additional observations from a re-analysis of the deposited data

Results flagged for a closer look

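The effect of OIR on Esm1 was larger at p17 than at p14 by 2.91 on the log2 scale (limma, adjusted p = 0.0370), which marked it as a difference between ages. It was higher in OIR mice by 4.94 at p14, where 6 of 6 OIR mice were above all controls, and by 7.85 at p17, where 8 of 8 were. With 1 mouse left out the difference ran from 2.53 to 3.25, and it passed in 12 of 26 fits. Controls at or near 0 reads enter both effects, and their part in the difference was not tested.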

How the results depend on the processing

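In 1536 checks of single genes under other settings, 1449 kept their side of the threshold, 62 no longer passed and 25 newly passed. The sign changed in 14, none of them a value that passed, namely Ackr3 relative to pan-endothelial genes at p14, Esm1 between control ages and Cxcr4 at p14. The 3 genes called at p14 and the 0 between control ages held in every setting. By the DEG thresholds the count was 2 at p14 in every setting, and at p17 it ran from 2 to 3. The count of genes with a larger effect at p17, 1 in the report, was 0 with a pseudocount of 0.1 or no filter, 2 among genes that averaged 10 normalized reads or more, or with the same total in every mouse, and 3 with nOIR p14 S4 included or with DESeq2, whose 3 were Cxcr4, Unc5b and Kcne3. It ran from 0 to 2 with 1 mouse left out, and was 0 without nOIR p14 S1, S5 or S7, nOIR p17 S1, S2 or S3, OIR p14 S1, S3 or S6, or OIR p17 S2, S3, S6 or S8. The count between OIR ages, 4 in the report, was 2 with a pseudocount of 0.1, where Esm1 and Cxcr4 did not pass, and ran from 2 to 4 with 1 mouse left out, being 2 without OIR p14 S1 or S3 or OIR p17 S1, S2 or S6. With the mouse number as a replicate block, 0 genes differed between ages, 2 between OIR ages and 5 at p17, where Ackr3 did not pass (adjusted p = 0.0737). The numbers did not pair the mice, with correlations of deviations from -0.19 to 0.12 at p14 and from -0.09 to 0.25 at p17, and 1 pair at each age correlated best with its own number. In controls, Esm1 and Kcne3 rest on few reads, 6 to 33 per group. The cause of these shifts was not tested.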
